A study of Mus musculus with 16 samples.

Results

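CD11b+ dendritic cells of mouse lung were profiled on 16 arrays, 8 titled tumoral and 8 titled peritumoral. Lewis lung carcinoma (LLC) is a mouse lung cancer line, and here it was placed in the airways of immunocompetent C57BL/6 mice, the strain it comes from. Flow cytometry sorted the cells, by CD11c, MHC2 and CD11b, out of tumours and out of the lung tissue around them. All 16 arrays come from tumour-bearing mice, and no label gives the age of the mice or the animal or pool behind an array.

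The arrays described here fall into classes by their position in deposited order, not by their titles. Class A holds the first of every 3 arrays, namely peritumoral 1, 4 and 7 and tumoral 2, 5 and 8. Class C holds the third of every 3, namely peritumoral 3 and 6 and tumoral 1, 4 and 7. Class B, the arrays between them, holds peritumoral 2, 5 and 8 and tumoral 3 and 6. The comparison is class C (5 arrays) against class A (6 arrays), which uses 11 of the 16 arrays. These classes were selected on expression values of the same arrays, in which Arg1, Gpnmb, Vcan, Retnla and Scgb1a1 mark them. They are not groups of the study, the tissue behind each class is not known, and each class holds arrays of both titles. Every class difference below is therefore a description, and nothing is supported by it. The titles were tested. A fit of how class differences vary with the title is given by its count and values only. These are a description too, since the same selection applies to the fit.

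As background, myeloid cells in a tumour meet low oxygen, lactate, dying cells and lipid. Arginase 1, encoded by Arg1, breaks down arginine and is a known product of myeloid cells in tumours. The membrane protein GPNMB, the scavenger receptor MSR1 and the lysosomal cathepsins are typical of phagocytes loaded with lipid and debris. Conventional dendritic cells prime T cells, depend on the receptor FLT3 and, in the CD11b+ subset, on the transcription factor IRF4. Hypoxia-inducible factors, which are stable under low oxygen, bind DNA at the core ACGTG near genes of glycolysis and oxygen sensing.

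The 28853 probe sets gave 19938 genes with 1 symbol each, the brightest probe set standing for a gene. Deposited values ran from 2.31 to 14.33 on a scale treated as log2, and array medians lay between 6.75 and 6.95. A gene is called apart here where the class means differ by at least 1 log2 unit, a 2-fold difference, and no array of one class lies within the range of the other. By that rule 213 genes (1.07% of all genes) were higher in class C and 216 (1.08%) were lower. Without peritumoral 4 the counts were 231 (1.16%) higher and 211 (1.06%) lower, and 359 genes were apart both with and without that array. Class ranges were free of overlap, at any size of difference, for 4445 genes (22.3%). The rule for the classes used this contrast, so nothing is read from these shares. The median difference over all genes was -0.05, and it was -0.00 after quantile normalization. Over all genes 8420 differences were positive and 11518 negative, the background for the counts by sign below.

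**Figure D1:**
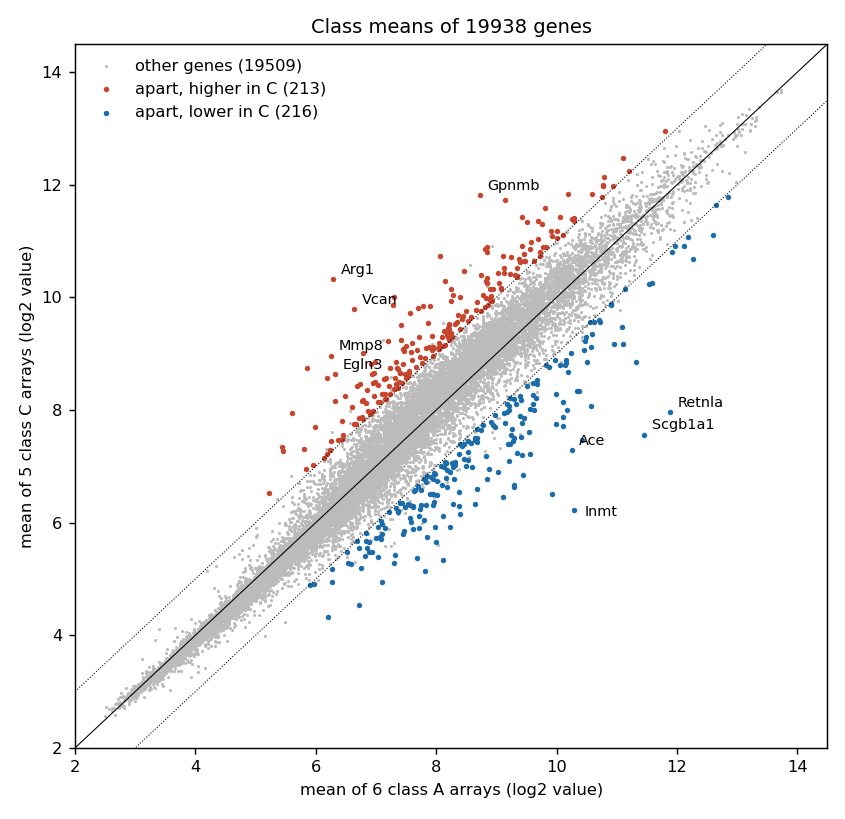
Mean log2 value of 19938 genes in 6 class A arrays (horizontal axis) and 5 class C arrays (vertical axis); dotted lines mark a 1 log2 difference, red and blue points are genes apart. 213 genes lie above and 216 below, with Arg1 and Gpnmb far above the diagonal and Inmt, Retnla and Scgb1a1 far below it.

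At the edge of the rule, Nek6 was the last gene inside among the higher ones at 1.0113 and Sap30 the first outside at 0.9986. Among the lower ones Sesn3 was inside at -1.0017 and Niban1 was outside by less than the rounding of the values. Class B means lay between the class A and class C means for 212 of the 213 higher genes and for all 216 lower genes. The median place of the class B mean was 47.9% of the way from A to C among the higher genes and 35.9% among the lower ones.

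The 5 marker genes were read array by array. Arg1 stood at 6.75, 6.25 and 5.94 in peritumoral 1, 4 and 7 and at 6.29, 6.35 and 6.16 in tumoral 2, 5 and 8, all of class A. In class C it stood at 10.98 and 10.62 in peritumoral 3 and 6 and at 10.18, 9.62 and 10.22 in tumoral 1, 4 and 7. The class difference was 4.03, or 16.4-fold, and class B spanned 8.23 to 10.57. No class C array came near a class A array, under either title.

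Gpnmb, a membrane glycoprotein of phagocytes, stood at 9.07, 9.10, 8.67, 8.62, 8.17 and 8.66 in class A, in the same order of arrays. In class C it stood at 11.36, 11.94, 12.10, 11.93 and 11.74, a difference of 3.10. Class B reached 10.65 to 11.69, inside the class C range at its upper end. Vcan encodes versican, a proteoglycan of the provisional matrix. It stood at 6.83, 7.47, 6.47, 6.19, 6.48 and 6.37 in class A and at 10.91, 10.27, 9.27, 9.02 and 9.49 in class C, a difference of 3.16. The highest class C values of Vcan were those of the peritumoral arrays.

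Retnla encodes a small secreted protein, RELM-alpha, that interleukin 4 and interleukin 13 induce. It stood at 11.74, 10.97, 12.30, 12.07, 12 and 12.23 in class A and at 6.71, 7.50, 8.44, 7.81 and 9.33 in class C, a difference of -3.93. Its spread within class C was wider than within class A. Scgb1a1 encodes the main secretory protein of club cells in the airway. It stood at 11.53, 13.06, 12.20, 11.44, 10.24 and 10.27 in class A, at 7.42, 7.51, 7.79, 7.82 and 7.25 in class C, and at 10.32 to 11.03 in class B. Class B lay within the class A range for this gene, and without peritumoral 4, the highest array, the difference was -3.58 against -3.90 with it.

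**Figure D2:**
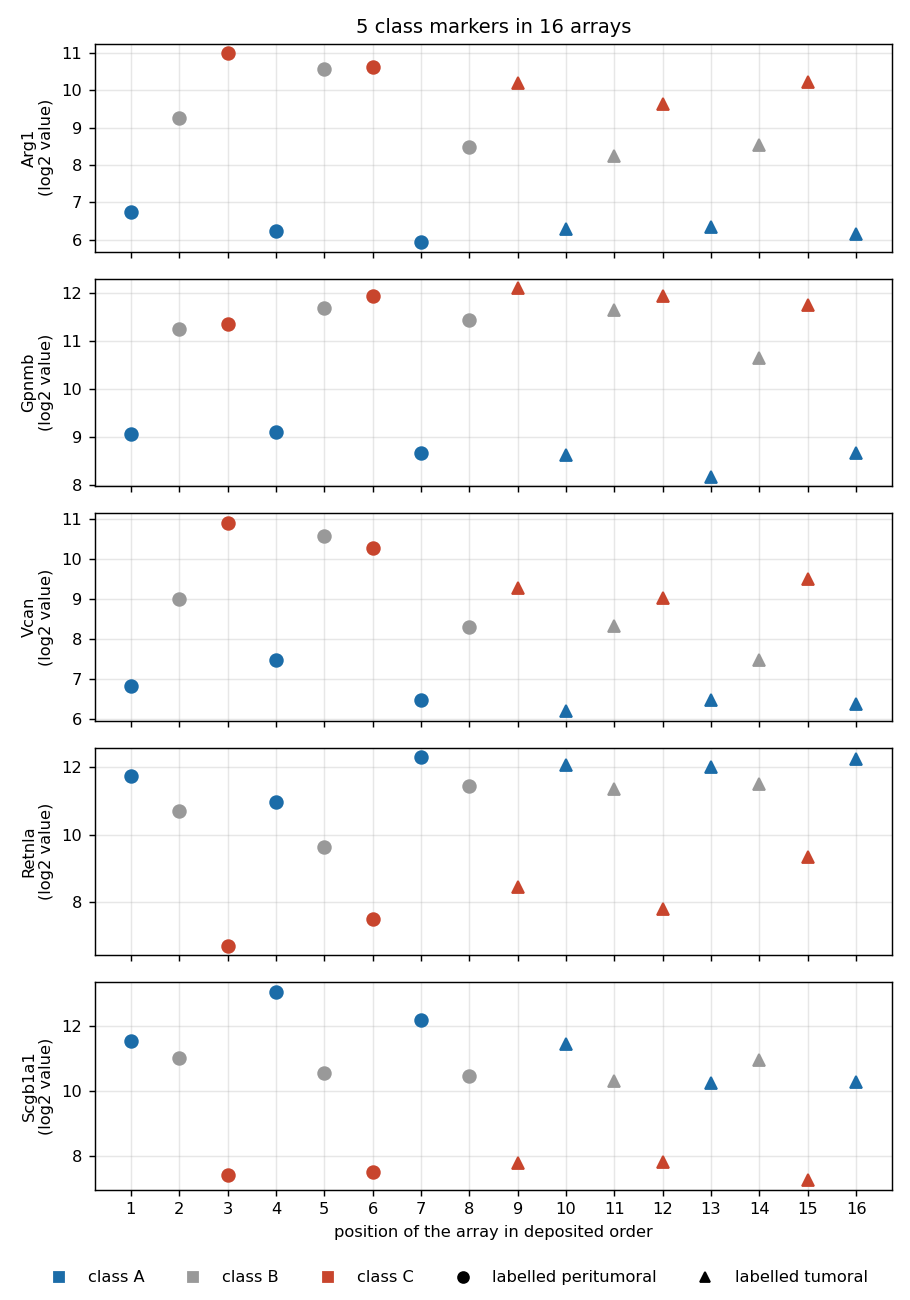
Log2 value of Arg1, Gpnmb, Vcan, Retnla and Scgb1a1 in each of 16 arrays, by position in deposited order; colour gives the class and shape the title. Class C points stay apart from class A points on both sides of the change from peritumoral to tumoral titles at position 9.

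Beyond the markers, the largest positive difference was that of Rnf128. Rnf128, an E3 ubiquitin ligase, differed by 2.89, with class A at 5.67 to 6.02 and class C at 8.41 to 8.98. Ctsk, the collagen-degrading protease cathepsin K, differed by 2.72, with class A at 6.81 to 8.22 and class C at 9.36 to 10.90. Mmp8, a neutrophil collagenase, differed by 2.70. Ppbp, a chemokine precursor of platelets and myeloid cells, differed by 2.67. Class B lay mostly between the classes, from 6.61 to 7.98 for Rnf128 and from 8.20 to 9.39 for Ctsk. Nxpe5 differed by 2.59, Msr1 by 2.58, Ccl8 by 2.40, Car6 by 2.33, Nt5e by 2.23 and Tfec by 2.14.

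The largest negative difference was -4.07, in Inmt, a methyltransferase abundant in lung stroma. P3h2, a collagen prolyl hydroxylase, differed by -3.41, with class A at 9.17 to 10.15 and class C at 6.31 to 6.71. Sftpc, a surfactant protein of alveolar type 2 cells, differed by -2.97. Ace, angiotensin-converting enzyme, differed by -2.96, with class A at 9.70 to 11.69 and class C at 6.96 to 7.61. Jchain, which joins antibody units, and an immunoglobulin kappa variable gene differed by -2.67 and -2.79. Rasgrp3, Serpinb10, Gpr141b, Hepacam2, Adgre4, Hpgd and Timd4 differed by -2.66, -2.65, -2.63, -2.59, -2.49, -2.46 and -2.38.

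Titles can be held fixed while classes are compared. In the tumoral arrays alone, 3 of class C and 3 of class A, the difference of Arg1 was 3.74, and in the peritumoral arrays alone, 2 of class C and 3 of class A, it was 4.49. For Retnla these differences were -3.57 and -4.57, and for Scgb1a1 -3.03 and -4.80. At least 1 log2 unit under both titles was reached by 156 of the 213 higher genes and 130 of the 216 lower genes. Nothing particular to the titles is shown by these counts, since the classes were noticed in the same values.

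Arginine metabolism was described over 10 measured genes, of which 5 were apart and higher in class C and none lower, with a median difference of 0.70 beside -0.05 over all genes. Arg2, the mitochondrial arginase, stood at 7.59 to 9.35 in class A and 9.75 to 10.29 in class C, a difference of 1.59. Slc7a2, a carrier of arginine into cells, stood at 6.97 to 9.03 and at 9.40 to 10.03, a difference of 2.11. Nos2, inducible nitric oxide synthase, differed by 1.04 and Srm, spermidine synthase, by 1.08. The arginine enzymes Asl and Oat, at 0.26 and -0.11, were not apart.

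Of 16 measured genes of type 2 activation, 6 were apart and lower in class C and 1 higher, with a median of -0.38. Retnla was the largest, followed by Cd163 at -1.59, Ccl22 at -1.58, Cd209a at -1.48, Irf4 at -1.39 and Ccl17 at -1.05. CD163 is a haemoglobin scavenger receptor, and CCL17 and CCL22 draw T cells that carry CCR4. Pdcd1lg2, the gene of the inhibitory ligand PD-L2, was higher, at 6.56 to 7.48 in class A and 7.87 to 9.49 in class C. Arg1 and Retnla, both known targets of interleukin 4 in macrophages, thus lay on opposite sides.

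Genes of lipid-laden macrophages were higher in class C for 6 of 14 members, none lower, with a median of 0.63. Msr1, a receptor for modified lipoproteins, stood at 8.66 to 9.40 in class A and at 11.57 to 11.91 in class C, a difference of 2.58. Ctsl, cathepsin L, differed by 2.0, Fabp5, a fatty acid carrier, by 1.61, Trem2, a lipid receptor, by 1.40, and Cd63, a lysosomal tetraspanin, by 1.30. Cd36 at -0.46 and Cd9 at 0.04 were not apart. Of 21 lysosome genes 3 were apart, Ctsk, Ctsl and Ctsd, with a median of 0.45, and Atp6v0d2, a proton pump subunit, differed by 1.99 with overlapping ranges. Without peritumoral 4, Atp6v0d2 was apart at 2.37.

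Matrix genes were apart and higher in class C for 5 of 16 members, with a median of 0.75. Vcan led, and F10 and F7, which encode coagulation factors X and VII, differed by 1.89 and 1.84. Serpinb2, an inhibitor of plasminogen activators, stood at 6.60 to 7.25 in class A and 8.28 to 9.42 in class C, a difference of 1.86. Thbs1, thrombospondin 1, differed by 1.16. Among 14 metalloproteinases and their inhibitors 4 were higher and 1 lower, with a median of 0.69. Mmp14, the membrane-bound activator of other metalloproteinases, stood at 8.28 to 9.26 and at 10.59 to 10.98. Timp1 was higher by 1.58 and Mmp19 by 1.18, and Timp3 was lower at -1.75. Mmp9 differed by 2.02 with overlapping ranges, by 3.32 in the peritumoral arrays and by 1.21 in the tumoral arrays. Without peritumoral 4 it was apart at 2.18, and 5 members of the list were then higher.

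The hypoxia list held 26 measured genes, of which 22 had positive differences (18 after quantile normalization) and 5 were apart, all higher in class C, with a median of 0.35. Egln3, a prolyl hydroxylase that marks hypoxia-inducible factors for destruction, stood at 6.02 to 6.67 in class A and 8.01 to 9.64 in class C, a difference of 2.30. Bnip3, which targets mitochondria for removal, stood at 7.31 to 7.85 and at 9.35 to 10.30, a difference of 2.16. Ak4, a mitochondrial adenylate kinase, differed by 1.84, Pdk1, a brake on pyruvate entry to mitochondria, by 1.41, and Mif, a cytokine, by 1.37. Vegfa at 0.79, Slc2a1 at 0.83 and Ndrg1 at 0.81 were below the limit, Hk2 was at 0.02 and Adm at -0.41. Epas1, which encodes HIF-2 alpha, differed by -1.74 without being apart.

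Glycolysis and lactate export gave the largest median of the function lists, 0.86, with 7 of 18 members apart and higher and 1 lower. Pgk1 stood at 9.34 to 9.91 in class A and 11.11 to 11.51 in class C, a difference of 1.57, and Tpi1 differed by 1.5. Pgam1, Pfkl, Pkm and Aldoa, all enzymes of glycolysis, differed by 1.36, 1.07, 1.06 and 1.05, and Slc16a1, a lactate carrier, by 1.13. The exception was Slc2a3, the glucose carrier GLUT3, at 9.19 to 9.46 in class A and 7.08 to 7.59 in class C, a difference of -2.11. Of 21 genes of oxidative phosphorylation all 21 had positive differences, also after quantile normalization or centring, and none was apart, with a median of 0.36. Cox5a led at 0.81.

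**Figure D3:**
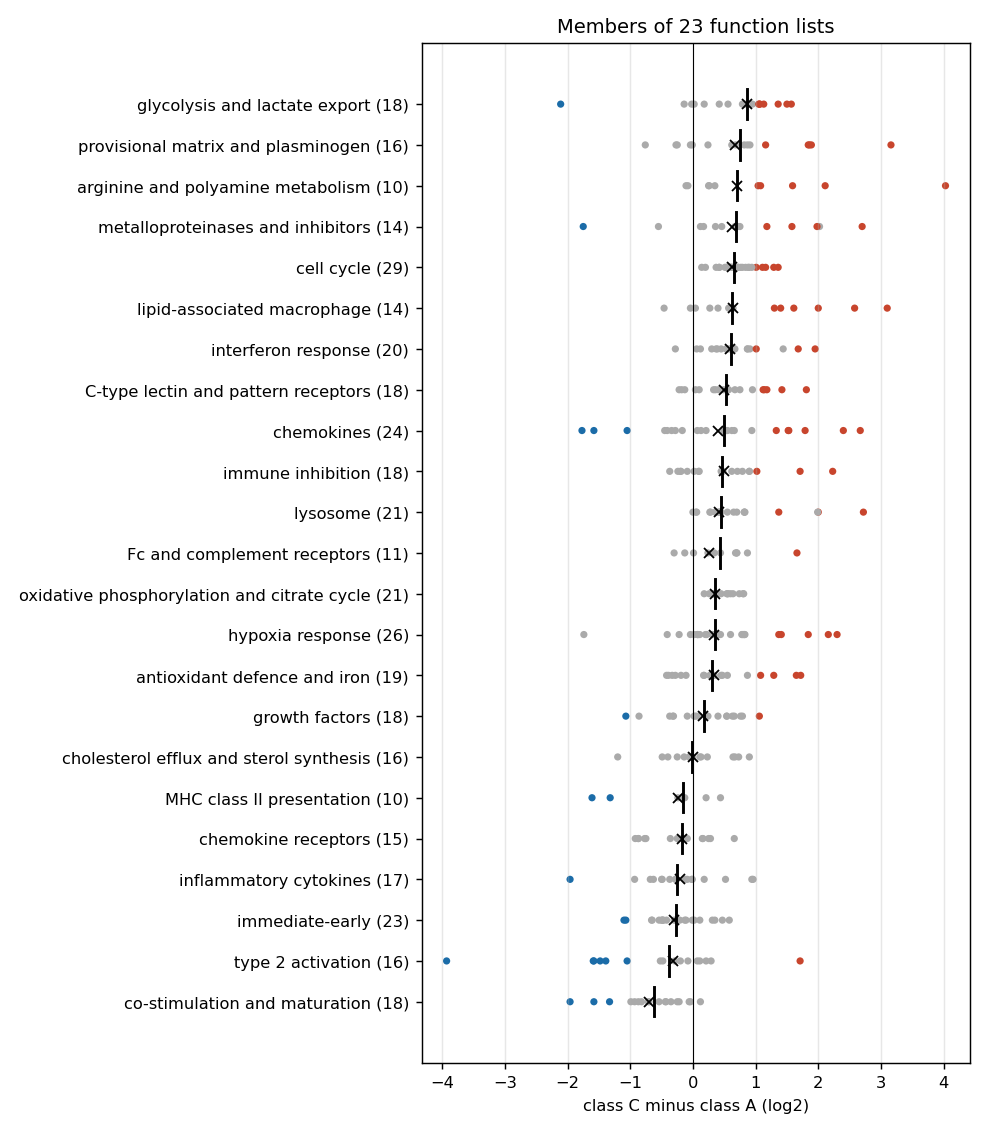
Class C minus class A (log2) for each measured member of 23 function lists, number of members in brackets; red and blue mark members apart, bars are list medians and crosses are medians without peritumoral 4. Glycolysis has the highest median (0.86) and co-stimulation the lowest (-0.62).

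Upstream sequences of Egln3, Bnip3, Ak4 and Pgk1 are shown because the hypoxia and glycolysis lists hold known targets of hypoxia-inducible factors. The windows come from RefSeq on GRCm38.p6 and run from 250 bases before to 50 bases after the start, and 329 of the 429 genes apart had one. The core ACGTG, on either strand, stands in capitals, so CACGT marks a match on the other strand and CACGTG an overlapping match on both. Only windows that hold the core are printed, so they do not stand for every member of these lists. Cd163, Bcl11a and Jchain, all lower in class C, had a window with the core too.

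Egln3, chr12:54203825-54204124, minus strand: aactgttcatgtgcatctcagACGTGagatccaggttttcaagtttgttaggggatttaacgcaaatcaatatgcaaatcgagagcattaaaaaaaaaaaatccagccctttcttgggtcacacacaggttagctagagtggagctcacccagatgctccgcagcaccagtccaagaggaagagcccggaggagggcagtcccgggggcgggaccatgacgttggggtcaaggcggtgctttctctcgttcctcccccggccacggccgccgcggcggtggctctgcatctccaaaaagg
Bnip3, chr7:138909457-138909756, minus strand: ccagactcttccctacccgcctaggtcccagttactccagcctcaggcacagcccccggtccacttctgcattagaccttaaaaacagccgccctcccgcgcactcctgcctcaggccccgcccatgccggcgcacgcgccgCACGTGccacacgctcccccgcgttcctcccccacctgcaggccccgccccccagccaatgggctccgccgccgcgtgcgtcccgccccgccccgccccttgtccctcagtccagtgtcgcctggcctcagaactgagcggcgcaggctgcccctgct
Ak4, chr4:101419453-101419752, plus strand: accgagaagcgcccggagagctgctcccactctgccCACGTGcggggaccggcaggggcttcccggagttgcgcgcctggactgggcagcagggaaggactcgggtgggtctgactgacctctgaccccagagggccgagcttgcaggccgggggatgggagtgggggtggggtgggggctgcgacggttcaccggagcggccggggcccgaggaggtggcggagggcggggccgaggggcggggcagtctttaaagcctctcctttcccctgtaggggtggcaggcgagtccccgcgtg
Pgk1, chrX:106186850-106187149, plus strand: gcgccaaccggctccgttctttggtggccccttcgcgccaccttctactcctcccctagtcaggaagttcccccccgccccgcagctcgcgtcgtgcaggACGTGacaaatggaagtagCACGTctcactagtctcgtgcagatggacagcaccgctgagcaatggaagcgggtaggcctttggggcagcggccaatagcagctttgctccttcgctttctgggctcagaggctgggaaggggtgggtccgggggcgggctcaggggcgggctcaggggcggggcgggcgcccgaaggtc

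The Egln3 window holds the core once, at -229, and the Pgk1 window holds it at -150 and -131, once on each strand. In the Bnip3 and Ak4 windows the overlapping pair begins at -108 and -214. Over all windows the core was found in 62 of 167 genes higher in class C (37.1%), in 40 of 162 genes lower in class C (24.7%) and in 24.4% of 15614 genes with a window. Each motif of the list below was read the same way, on both strands, and these shares are a description without a test.

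The AP-1 site TGANTCA was in 12% of the higher genes, 13% of the lower genes and 8.08% of all genes. The C/EBP site TTGCNNAA was in 14.4%, 14.8% and 11.3%. A STAT6 site, TTC and GAA separated by 4 bases, was in 7.19%, 9.26% and 7.29%. An interferon-stimulated site, TTTC and TTTC separated by 2 bases, was in 5.99%, 5.56% and 3.89%. A gene with several starts counted where any of its windows held the motif, and for Ak4 only the window with the core is shown. The Retnla window is shown because this gene, known to depend on STAT6, had one such site, in capitals, at -145.

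Retnla, chr16:48842359-48842658, plus strand: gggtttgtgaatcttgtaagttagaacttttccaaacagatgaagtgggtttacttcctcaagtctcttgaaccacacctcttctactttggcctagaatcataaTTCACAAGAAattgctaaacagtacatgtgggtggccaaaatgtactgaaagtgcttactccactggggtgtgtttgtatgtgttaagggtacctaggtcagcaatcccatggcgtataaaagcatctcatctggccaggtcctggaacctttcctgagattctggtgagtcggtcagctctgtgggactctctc

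The sorting genes were close or higher in class C, H2-Ab1 at 13.30 ± 0.11 (SD, n = 6) in class A and 13.13 ± 0.08 (SD, n = 5) in class C, and Itgax, which encodes CD11c, at 11.58 ± 0.26 and 11.45 ± 0.17. Itgam, which encodes CD11b, was at 10.96 ± 0.39 and 11.65 ± 0.10. Its class ranges did not overlap, at 10.18 to 11.22 and 11.53 to 11.80, though the difference of 0.70 was below the limit. The Itgam difference was 0.54 without peritumoral 4, 0.47 in the tumoral arrays and 0.95 in the peritumoral arrays. Of 10 genes of MHC class II presentation, H2-Ob and H2-Oa, which temper peptide loading, were apart and lower, at -1.61 and -1.32. The other 8 lay between -0.24 and 0.44, Cd74 at -0.16 and Ctss at 0.44 among them. The list median was -0.16.

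Co-stimulation and maturation had the lowest median of the function lists, -0.62, and 3 of 18 members were apart, all lower in class C. Il12b, a subunit of interleukin 12, stood at 9.39 to 10.48 in class A and 7.97 to 8.69 in class C, a difference of -1.96. Ccl22 differed by -1.58 and Icam1, an adhesion molecule, by -1.33. Without peritumoral 4 the count of members apart was 6. Cd83 at -0.93, Ccr7 at -0.87, Cd40 at -0.71 and Cd86 at -0.35 were not apart.

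Inhibitory molecules were higher in class C for 3 of 18 members, with a median of 0.46. Nt5e, which encodes CD73 and makes adenosine, stood at 6.35 to 8.16 in class A and 8.64 to 9.40 in class C, a difference of 2.23. Pdcd1lg2 differed by 1.71 and Il10 by 1.02. Without peritumoral 4, Il10 was below the limit at 0.87.

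Among 24 chemokines 6 were higher and 3 lower, with a median of 0.49. The higher ones were Ppbp, Ccl8 at 2.40, Cxcl9 at 1.79, Ccl12 at 1.53, Cxcl3 at 1.52 and Pf4 at 1.33. Ccl8 and Ccl12 act on monocytes, Cxcl9 on activated T cells and Cxcl3 on neutrophils. The lower ones were Cxcl13 at -1.77, Ccl22 and Ccl17. No member of 15 chemokine receptors was apart.

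Cell cycle genes had positive differences in all 29 members, also after quantile normalization or centring, 5 of them apart, with a median of 0.65. Plk1, a mitotic kinase, stood at 7.22 to 7.81 in class A and 8.55 to 9.05 in class C. Bub1, Cdk1, Bub1b and Ccna2 differed by 1.29, 1.16, 1.11 and 1.01, and Ccna2 was not apart without peritumoral 4, at 0.92. Antioxidant genes were apart for 4 of 19 members, with a median of 0.31, among them Slc40a1, the iron exporter, at 1.72, Hmox1, haem oxygenase 1, at 1.65 and Slc7a11, the cystine carrier, at 1.29. C-type lectins and pattern receptors were apart for 5 of 18, all higher, with Clec4n at 1.81, Clec5a at 1.42, Clec4d at 1.18, Clec4e at 1.14 and Tlr4 at 1.12.

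Fcgr1, the high-affinity IgG receptor, was the member apart among 11 Fc and complement receptors (median 0.44, and 0.25 without peritumoral 4), at 8.03 to 9.20 in class A and 10.01 to 10.72 in class C. Growth factors had Pgf, placental growth factor, higher at 1.06 and Bmp2 lower at -1.07 among 18. Pgf was not apart without peritumoral 4, at 0.97. Immediate-early genes had Nr4a3 at -1.10 and Egr3 at -1.07 apart among 23, and inflammatory cytokines had Il12b among 17. No gene was apart among 16 of cholesterol handling, whose median changed sign with the scaling, from -0.02 to 0.03 with each array centred.

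The interferon list held 20 genes with a median of 0.61 and 3 members apart, Rsad2 at 1.95, Ifit2 at 1.68 and Oasl1 at 1.01. Without peritumoral 4, 4 members were apart and higher. The list median was 0.97 in the tumoral arrays and -0.05 in the peritumoral arrays. Rsad2, the antiviral protein viperin, differed by 2.50 and 1.15, and Ifit3 by 2.21 and 0.31. This was a list whose sign of the median depended on the title of the arrays.

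All list medians but that of cholesterol handling kept their sign under both scalings. A limma fit with a term for class and title together gave the difference between the tumoral and the peritumoral class differences over 11 arrays. It called 15 genes (0.0752%) at an adjusted p of 0.05, 10 with a larger value in the tumoral arrays and 5 with a smaller one. The classes it contrasts were selected on these values, so its p-values are not a valid test, none is printed, and the values that follow are a description. The count changed with single arrays, from 0 without peritumoral 3 or without tumoral 2 to 106 without peritumoral 4, and it was 34 without peritumoral 1. It was 6 without peritumoral 6 or tumoral 5, 2 without tumoral 1, 7 or 8, and 8 after quantile normalization.

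The 15 genes are named here after their values were seen. Ifit3, Ifit2 and Usp18, of the interferon list, had larger class differences in the tumoral arrays, by 1.90, 1.48 and 1.45. Ifi213, Irgm1, Phf11d, Gm12250 and Xaf1 did too, by 1.97, 1.5, 1.44, 1.27 and 1.15. Cfb, complement factor B, stood at 7.35, 7.88 and 7.43 in the peritumoral class A arrays and at 7.27, 7.25 and 7.28 in the tumoral class A arrays. In class C it stood at 8.44 and 8.58 in the peritumoral arrays and at 10.31, 10.19 and 10.05 in the tumoral arrays. The class difference was 0.96 in the former and 2.91 in the latter (difference 1.96).

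Ifit3, an antiviral protein, stood at 8.40 and 8.57 in peritumoral class C and at 10.36, 10.10 and 10.34 in tumoral class C (difference 1.90). Its class A arrays lay between 7.80 and 8.43 under both titles. The tumoral class C arrays were higher than all other arrays of classes A and C for Cfb and Ifit3. In class B, Ifit3 stood at 8.41, 8.35 and 9.79 in peritumoral 2, 5 and 8 and at 9.69 and 8.84 in tumoral 3 and 6. Oscar, an immune receptor of osteoclasts and myeloid cells, stood at 8.59 and 8.37 in peritumoral class C and at 6.55, 6.60 and 6.72 in tumoral class C (difference -1.89). Slc9b2, Cd109, Abcb4 and Saa3 had negative differences too, of -1.68, -1.29, -0.95 and -1.39, and Cd200r4 had a positive one of 1.16.

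**Figure D4:**
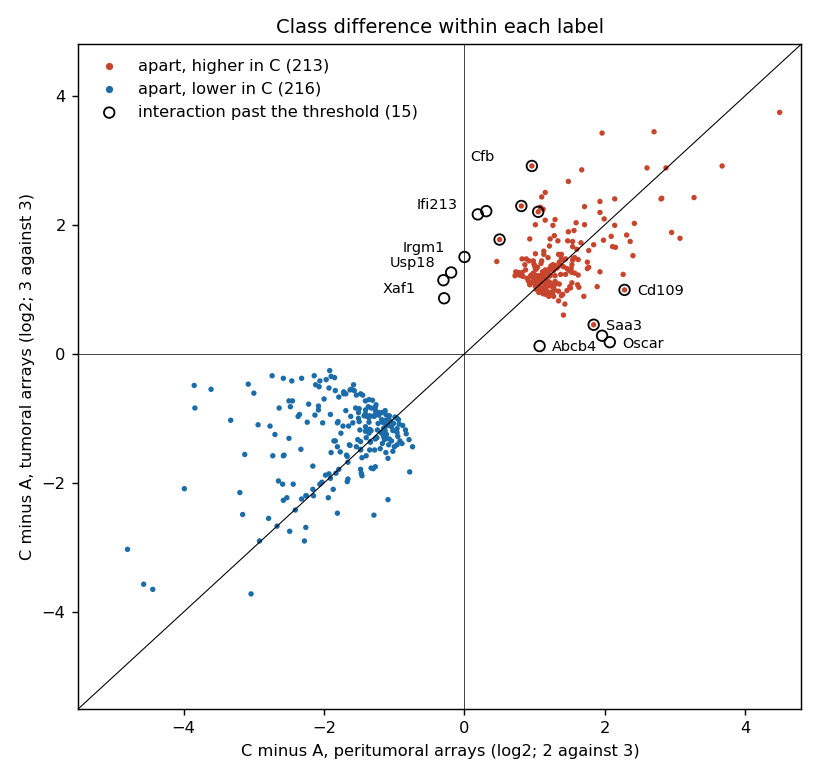
Class C minus class A (log2) in the peritumoral arrays (2 against 3, horizontal axis) and in the tumoral arrays (3 against 3, vertical axis); red and blue points are genes apart over 11 arrays and rings mark the 15 genes that the fit of class and title together called. Cfb and Ifi213 lie above the diagonal, Oscar and Cd109 below it.

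Titles themselves were compared with the class as a term in the limma fit over 11 arrays. Tumoral minus peritumoral passed an adjusted p of 0.05 for 0 genes (0% of all genes), with a smallest adjusted p of 0.16. Of the 19938 genes tested, 3109 had an unadjusted p under 0.05. The lowest p-values belonged to Cyp2s1 at -0.95, 1700034I23Rik at -0.47, Cenpv at -0.50, Mir17hg at 0.67 and Dcn, the matrix protein decorin, at -2.72. The count of 0 was not the same in every alternative. Without peritumoral 7 it was 1088, without peritumoral 4 it was 23, and with array weights it was 1491.

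Within class C alone, 3 tumoral against 2 peritumoral arrays with 3 residual degrees of freedom, 1539 genes (7.72%) passed, 830 higher and 709 lower in the tumoral arrays. Within class A alone, 3 against 3, 0 genes passed and 549 of 19938 had an unadjusted p under 0.05 by limma. The first genes in class C were Iigp1, an interferon-induced GTPase, at 1.94, Oscar at -1.85, Ifit3 at 1.78, Snord33 at 1.48 and Cfb at 1.67. In class C the peritumoral arrays were at positions 3 and 6 and the tumoral arrays at 9, 12 and 15. In class A, and among all arrays, every peritumoral array likewise came before every tumoral array in deposited order. Title and place in the order therefore cannot be told apart within either class or in the title fit over both classes. No label says whether the samples came from separate animals, so these p-values measure only the spread between arrays, which may be technical.

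The labelled cell type was checked against its markers. In bulk samples, fewer cells of a type and less RNA per cell cannot be told apart, which applies to every list that follows. Conventional dendritic cell markers had negative differences in 12 of 14 members (13 after quantile normalization), and 6 were apart, all lower in class C, with a median of -0.93. Over all genes 11518 of 19938 differences were negative. Cd209a, a lectin of CD11b+ dendritic cells, stood at 12.22 to 12.84 in class A and 10.74 to 11.43 in class C. Irf4 differed by -1.39, Bcl11a by -1.29, Flt3 by -1.27, Dpp4 by -1.24 and P2ry10 by -1.11. In class C, Cd209a, Irf4 (8.77 to 9.39) and Bcl11a (7.58 to 7.78) lay above the median of every array. These are the 3 members with the largest differences, and the class C levels of the other members are not given here.

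Macrophage markers had positive differences in 13 of 16 members, where 8420 of 19938 genes did, with a median of 0.56. Over the 11 arrays only Fcgr1 at 1.66 and Maf at 1.21 were apart and higher. Cd163 was apart on the other side, and Lyve1 differed by -1.44. Without peritumoral 4, 3 macrophage markers were apart and higher, with Gas6 at 1.06, and the median was 0.47. Type 1 dendritic cell markers, 12 measured, had none apart and a median of -0.11. Of their differences 6 were positive and 6 negative, with Irf8 at 0.51 and Xcr1 at -0.87. Without peritumoral 4, 2 of them were apart and lower, Clec9a at -1.06 (-0.98 with it) and Wdfy4 at -1.05 (-0.94 with it). Clec9a differed by -0.49 in the tumoral arrays and by -1.75 in the peritumoral arrays. Plasmacytoid dendritic cell markers, 7 measured, had none apart, 6 negative differences and a median of -0.28, with Siglech at -0.85 and Bst2 at 0.51. Monocyte markers, 13 measured, had 7 positive and 6 negative differences, and Ace was apart and lower at -2.96. Their median was 0.10, which became -0.03 without peritumoral 4. The median of 13 alveolar macrophage markers was -0.22 over the 11 arrays, -0.10 without peritumoral 4, 0.09 in the tumoral arrays and -0.57 in the peritumoral arrays. Of these markers Ctsk was apart and higher at 2.72, and none was apart and lower. Without peritumoral 4, Atp6v0d2 was apart and higher too, at 2.37.

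Markers of cells outside the gate differed between the classes as well. Club cell and airway epithelium markers had negative differences in all 11 members, 5 of them apart, with a median of -1.23. Without peritumoral 4 the median was -0.63 and 4 were apart. The mean of their values, each gene set to 0 at its mean over 16 arrays, ran from -0.13 to 2.72 in class A, from -0.18 to 0.10 in class B and from -0.76 to -0.62 in class C. Cyp2f2, a cytochrome of club cells, stood at 7.02 to 12.38 in class A and 5.87 to 6.71 in class C. Alveolar epithelium markers had 4 of 15 apart and lower and 1, Pdpn at 1.5, higher, with a median of -0.74. Without peritumoral 4 the median was -0.43 and 1 was apart and lower, since Sftpa1, Slc34a2 and Sftpb were then at -0.99, -0.91 and -0.59. Their mean ran from -0.12 to 1.87 in class A and from -0.47 to -0.29 in class C.

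B cell markers had negative differences in all 10 members, 4 of them apart, with a median of -0.70, and Ms4a1, which encodes CD20, differed by -1.88. Without peritumoral 4 the median was -0.42 and 2 were apart, with Cd79a at -0.94 and Ebf1 at -0.82. Their mean ran from -0.03 to 2.09 in class A and from -0.69 to -0.44 in class C. Endothelial markers had negative differences in all 15 members with a median of -0.89, and Ramp2 was apart at -1.44. Without peritumoral 4 the median was -0.38 and none was apart, with Ramp2 at -0.83. Fibroblast markers had Inmt, Bgn and Mgp apart among 15, with a median of -0.49 and of -0.28 without peritumoral 4. T cell and NK cell markers had none apart among 11 and 11, with medians of -0.35 and -0.54, which were -0.19 and -0.26 without it.

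Peritumoral 4 held the highest class A mean of the club, alveolar epithelium, B cell, T cell, NK cell, endothelial and fibroblast lists, at 2.72, 1.87, 2.09, 0.99, 1.44, 3.25 and 1.91. It also held that of the alveolar macrophage, neutrophil, keratin, plasmacytoid dendritic cell, mast cell and monocyte lists, at 1.04, 1.02, 0.82, 0.51, 0.41 and 0.27. Neutrophil markers had Mmp8 higher and Retnlg lower among 17, with a median of -0.32, and 2 higher and 1 lower without that array. Eosinophil, basophil and mast cell markers had none apart among 12, with a median of -0.14. Keratin and carcinoma cell markers had Met, the receptor of hepatocyte growth factor, apart at 1.40 among 11, with a median of -0.13. Without peritumoral 4 that median was -0.03 and 2 were apart and higher. Erythrocyte and platelet markers had Ppbp and Pf4 apart and higher among 6, at 2.67 and 1.33, with a median of -0.14. The other members, Gp9, Itga2b, Slc4a1 and Alas2, had negative differences of -0.42, -0.27, -0.22 and -0.07. The part of these cells in the differences of dendritic cell, macrophage, hypoxia or any other genes was not tested.

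**Figure D5:**
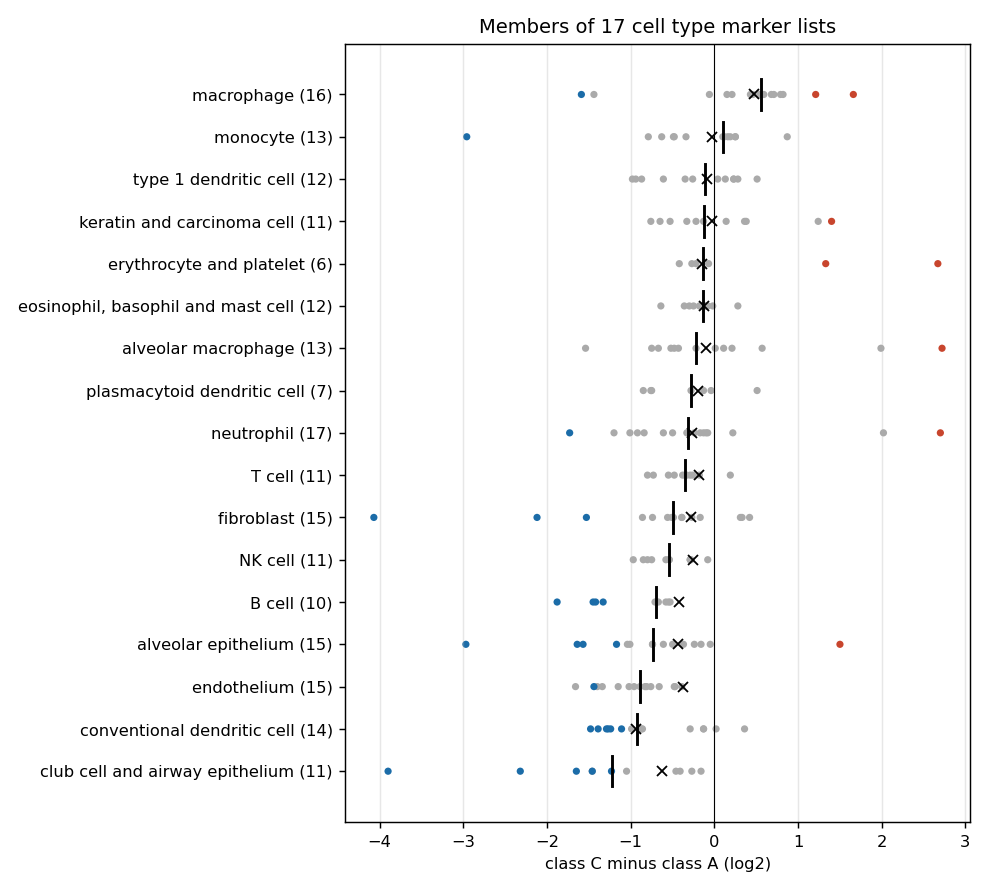
Class C minus class A (log2) for each measured member of 17 cell type marker lists, number of members in brackets; red and blue mark members apart, bars are list medians and crosses are medians without peritumoral 4. Over all 11 arrays, club cell and airway epithelium (-1.23) and conventional dendritic cell (-0.93) have the lowest medians and macrophage (0.56) the highest.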

How the data were processed

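RNA of sorted cells was extracted with the miRNeasy kit, converted with the Ambion WT Expression Kit and hybridised, labelled with biotin, to Affymetrix whole-transcript arrays, per the labels' protocols. The authors deposited 1 value table of 28853 probe sets and 16 arrays, taken here as log2 values. How the authors scaled the values, and to which log base, is not given in the sources used here. The table was used as deposited.

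Probe sets with 1 symbol in GEO's platform annotation (21789) gave 19938 genes; 1621 with several symbols and 5443 with none were left out. The brightest probe set stood for each of the 999 genes with several. Of the named probe sets 21698 matched the RefSeq gene table of GRCm38.p6, and 0 symbols changed.

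Classes A and C, their members and the 40 gene lists (627 different genes, 572 measured) were chosen with earlier results of these data known. Class means and ranges were compared without a test. Titles were tested with limma 3.58.1 in R 4.3.3, with Benjamini-Hochberg adjustment, and the fit was tested on simulated data. A limma fit with the interaction of class and title is given by its count and values only, because the classes were selected on the same values. The genes named are the 5 markers, the 15 largest differences each way among genes whose class ranges did not overlap, the 3 largest of each list, the sorting genes and the 5 lowest p-values of the title test; list members that were apart and genes called by the interaction fit are named too, chosen after their values were seen. The number of arrays limits the precision. Alternatives changed the arrays, normalization, filter, probe set, fold limit and covariates. Array numbers were not taken to pair tumoral with peritumoral arrays.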

Additional observations from a re-analysis of the deposited data

Results flagged for a closer look

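Each named gene was examined in class A and in class C for an array far from the others of its class, by the gap to the nearest array against the whole range (Dixon's criterion). Of 262 combinations of gene and class 48 had such an array, and 40 of the 48 were peritumoral 4. The nominal rate of 1 in 20 does not apply here. Most of these genes were named for large class differences that include peritumoral 4, and genes are not independent of each other.

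Peritumoral 4 was the highest class A array for 29 genes. Among epithelial genes these were Aldh1a1 at 9.83, Krt19 at 9.18, Sftpa1 at 12.07, Sftpc at 12.81 and Slc34a2 at 10.86. Among lymphocyte, NK cell and plasmacytoid dendritic cell genes they were Cd28 at 8.41, Cd3e at 9.34, Cd3g at 8.89, Cd79a at 9.19, Fcer2a at 8.98, Gzma at 8.48, Gzmb at 8.70, Ly6d at 8.70, Ms4a1 at 9.63 and Ncr1 at 8.42. Among genes of vessels, stroma and other lists they were Bgn at 11.65, Flt1 at 10.50, Gata2 at 9.27 and Inmt at 11.94. The others were Ace at 11.69, Ctsk at 8.22, Ctsl at 10.34, Cxcr2 at 8.16, Hmox1 at 10.60, Hpgd at 12.03, Nt5e at 8.16, Ppbp at 9.59, Scd1 at 11.71 and Tfec at 9.11.

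Peritumoral 4 was the lowest class A array for 11 genes, namely Ccl22 at 11.87, Clec9a at 7.91, Ctss at 11.47, H2-Oa at 9.36, Hepacam2 at 8.23, Irf4 at 9.88, Itgam at 10.18, Itgax at 11.07, Nr4a3 at 11.68, Osm at 10.03 and P3h2 at 9.17. Itgax and Itgam, the genes of the sorting markers CD11c and CD11b, are among them.

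In the other arrays, Ak4 was low at 5.99 in tumoral 5 and Clec4d low at 8.48 in peritumoral 1, both of class A. In class C, Inmt was low at 5.80 and Il12b high at 8.69 in tumoral 7. Pf4 at 11.30 and Slc40a1 at 9.10 were high in tumoral 4, Mcpt8 was high at 5.16 in peritumoral 6 and Slc2a3 was high at 7.59 in peritumoral 3.

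A limma fit of class and title together called 15 genes, of which Ifit3 (class difference 1.90 larger in the tumoral arrays) and Ifit2 (1.48 larger) are among the genes named by rule. The classes were selected on these values, so the fit is not a valid test of them, and its count ran from 0 (without peritumoral 3 or without tumoral 2) to 106 (without peritumoral 4).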

How the results depend on the processing

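Over 19 settings, 0 of 1528 values of the 81 named genes that were apart changed sign. Class ranges of these genes do not overlap, so settings that only leave out arrays or keep 1 title could not change it. Among the other named genes Car4 and Cd28 changed sign, both to 0.09 with tumoral arrays only. Of all 2369 values of 126 named genes 44 moved by more than the spread within a class, 29 of them with peritumoral arrays only and 9 with tumoral arrays only. Counts of genes apart moved by over 1.5 times with peritumoral arrays only (403 lower; 459 at least 1 log2 lower, overlap allowed, against 275), with a limit of 1.5-fold (1079 higher, 515 lower) and with a limit of 2 log2 units (23 higher, 39 lower). Leaving out single arrays gave 199 to 237 higher and 211 to 234 lower. Quantile normalization gave 163 and 242, and centring each array gave 252 and 191.

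The title test gave 1539 genes in class C alone, 1491 with array weights and 8 with the replicate block over 16 arrays; leaving out single arrays gave 0 to 1088, with 1088 without peritumoral 7 and 23 without peritumoral 4. Its other settings, including quantile normalization, centring, all 16 arrays and no class term, gave 0. The cause was not tested. Counts from the fit of class and title together, which is no valid test of these classes, ran from 0 to 106 as single arrays were left out and were 8 after quantile normalization; all single-array omissions but that of peritumoral 4 were chosen after seeing the data. The replicate block left the class counts at 252 higher and 318 lower, at least 1 log2 apart with overlap allowed. Deviations of same-numbered arrays from their title means, which carry the class, correlated at -0.563 to 0.286, and deviations from class means at -0.226 to 0.307. Neither was over 0.1 in every pair, so the numbers were not taken to pair the arrays.

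Limits: classes were chosen from the values they are described by, tissue and animals are unknown, and signal over background cannot be judged from the deposited table.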
